A study of Mus musculus with 16 samples.

Results

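The genes described here shut down mitogen-activated protein (MAP) kinase signalling: the dual-specificity phosphatases Dusp1, Dusp4, Dusp5, Dusp6, Dusp8, Dusp10 and Dusp16, and the feedback inhibitors Errfi1, Spry2 and Spry4. Probes of the arrays were given gene symbols through their RefSeq accession, and a gene with several probes was read from the probe with the highest mean signal. Of these 10 genes, 9 had a probe that could be named, and all 9 were tested among 17764 genes. Dusp5 had no probe that could be named and has no value here. Levels are log2 intensities relative to the 75th percentile of all probes on the same array, so a level of 0 is that percentile and a difference of 1 is a doubling.

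Mitogen-activated protein kinases are switched on by phosphorylation of a threonine and a tyrosine, and the dual-specificity phosphatases remove both phosphates. Dusp1 and Dusp4 act in the nucleus and are induced as immediate early genes, Dusp6 acts in the cytoplasm and prefers the extracellular signal-regulated kinases (ERK), and Dusp8, Dusp10 and Dusp16 prefer the stress kinases JNK and p38. Sprouty proteins dampen the signal between receptor tyrosine kinases and ERK, and Errfi1 (also called Mig6) binds the epidermal growth factor receptor family and blocks its kinase. In many cell types Dusp1 and Errfi1 are induced by glucocorticoids, and in the heart these brakes are known for limiting growth and stress signalling of cardiomyocytes.

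The cells were HL-1, a mouse atrial cardiomyocyte line grown in Claycomb medium. They received vehicle (PBS), 100 nM dexamethasone (Dex, a synthetic glucocorticoid), 10 nM estradiol (E2, an estrogen) or both (Dex+E2) for 6 h, and the series addresses opposition between glucocorticoid and estrogen signals. Each label has 4 single-colour arrays, from 4 independent experiments per the series design. HL-1 is a single immortal line, and p-values measure only the spread between these 16 arrays, whose number limits the precision.

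Arrays lay on 4 slides with 2 labels each: Vehicle 1 and 2 with Dex 1 and 2, Vehicle 3 and 4 with E2 1 and 2, Dex 3 and 4 with Dex+E2 1 and 2, and E2 3 and 4 with Dex+E2 3 and 4. The share of probes well above background was 58.59% to 65.58% per array, and 0 probes were saturated. Vehicle 1 stood apart, with correlations of 0.9727 to 0.9817 to the other arrays across genes. All 10 atrial cardiomyocyte markers were well above background on 16 of 16 arrays, and so were 4 of 6 fibroblast and 4 of 4 smooth muscle markers. The endothelial markers Pecam1, Cdh5 and Tie1 and the macrophage markers Ptprc, Adgre1 and Lyz2 were well above background on 0 arrays. Of the 5 macrophage markers, Cd68 was well above background on 16 of 16 arrays.

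Per1, a clock gene and a textbook glucocorticoid target, did not follow the labels. It lay at 1.75 to 1.99 on 8 arrays and at -1.29 to -0.75 on the other 8, with no array between. On 4 arrays the level went against the label: Vehicle 4 and E2 4 had high Per1, and Dex 3 and Dex+E2 3 had low Per1. All 4 arrays numbered 3 had low Per1 and all 4 numbered 4 high Per1, whatever their label, so among these 8 arrays Per1 level and array number cannot be told apart. Each result is therefore given by label, with and without these 4 arrays, and by Per1 level (Per1-high and Per1-low arrays, 8 each). Per1 divided the arrays with earlier results of these data known, so a gene that follows Per1 differs between the sets, and gains in a comparison without the 4 arrays, through that choice. Values by Per1 set are descriptions with no test. The 2 sets overlapped in the share of probes above background and in the 75th percentile of intensity, but the summed intensity of the 5 endothelial markers lay at 819 to 1228 on Per1-high and 506 to 703 on Per1-low arrays. Kdr was the only one of the 5 well above background on 16 arrays, and the part of this sum in the results was not tested.

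RefSeq promoter windows of assembly GRCm38.p6, the 250 bases before an annotated start, were matched for 8 of the 10 genes by symbol. The 4 windows below are shown because Errfi1 and Dusp10 were the members that divided with Per1, Dusp1 is the phosphatase best known as a glucocorticoid target, and Dusp8 shares a motif with Errfi1 and Dusp1 and divided neither with Per1 nor with the array number. Capitals mark the cyclic AMP response element TGACGTCA and the CCAAT box, which reads ATTGG on the opposite strand. Errfi1 is the window of the downstream of its 2 annotated starts, chr4:150854820-150855069 on the plus strand, Dusp10 is chr1:184034131-184034380 on the plus strand, Dusp1 is chr17:26508473-26508722 on the minus strand, and Dusp8 is chr7:142095285-142095534 on the minus strand, each written 5′ to 3′ towards the start.
Errfi1: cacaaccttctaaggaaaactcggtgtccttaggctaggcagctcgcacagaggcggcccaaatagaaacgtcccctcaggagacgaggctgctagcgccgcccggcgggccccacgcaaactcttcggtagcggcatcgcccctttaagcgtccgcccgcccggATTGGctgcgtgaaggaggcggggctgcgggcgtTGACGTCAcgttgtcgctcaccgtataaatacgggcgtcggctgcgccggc
Dusp10: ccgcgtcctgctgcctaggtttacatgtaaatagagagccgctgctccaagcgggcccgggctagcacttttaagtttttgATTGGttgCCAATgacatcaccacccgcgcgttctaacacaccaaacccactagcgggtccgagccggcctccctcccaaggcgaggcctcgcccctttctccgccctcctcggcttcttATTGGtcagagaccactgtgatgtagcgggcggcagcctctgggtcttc
Dusp1: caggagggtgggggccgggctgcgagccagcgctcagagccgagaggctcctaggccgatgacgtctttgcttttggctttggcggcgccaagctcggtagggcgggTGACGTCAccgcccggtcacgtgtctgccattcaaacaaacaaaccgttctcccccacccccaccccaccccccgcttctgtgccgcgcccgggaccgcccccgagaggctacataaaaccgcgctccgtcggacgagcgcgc
Dusp8: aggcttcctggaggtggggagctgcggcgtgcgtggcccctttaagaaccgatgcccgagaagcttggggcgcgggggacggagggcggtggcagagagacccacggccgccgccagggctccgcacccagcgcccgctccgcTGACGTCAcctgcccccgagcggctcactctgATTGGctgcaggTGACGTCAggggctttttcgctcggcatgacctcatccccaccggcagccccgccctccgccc

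The window of the other Errfi1 start, chr4:150853546-150853795, held none of the motifs searched. The cyclic AMP response element occurred once in the printed Errfi1 window and the Dusp1 window and 2 times in the Dusp8 window, against 1.56% of all 32536 distinct windows with at least 1. In Errfi1 it lay 51 to 44 bases before the start, in Dusp1 143 to 136 bases before it. The Dusp10 window held 3 CCAAT boxes, a motif found in 33.8% of all windows, and 1 each stood in the windows of Errfi1, Dusp6, Dusp8 and Dusp16. The Errfi1 window also held the TATA box TATAAA (12.3% of windows), and the Dusp1 window the E-box CACGTG (6.04%). Both strands were searched as well for AGAACA of the glucocorticoid response element (16% of windows), its palindrome, AGAACA and TGTTCT around a gap of 3 bases (0.00922%, overlapping the former), the estrogen response element, GGTCA and TGACC around a gap of 3 bases (0.0645%), the AP-1 site TGANTCA (6.73%) and the ETS core CCGGAA (12.1%). None of these letters stood in a member's window, which says nothing of sites elsewhere. A match is a description of the letters and not a binding site.

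Errfi1 and Dusp10 were the members that divided with Per1, in opposite directions. For Errfi1, on the arrays labelled vehicle the levels were 1.27, 1.21, 1.23 and 1.87 on arrays 1 to 4, and on those labelled Dex 1.61, 1.74, 1.43 and 1.83. On the arrays labelled E2 it measured 1.17, 1.18, 1.23 and 1.74, and on those labelled Dex+E2 1.63, 1.58, 1.31 and 1.78. The labels overlapped because Vehicle 4 and E2 4 were as high as the Dex arrays and Dex 3 and Dex+E2 3 were low, and these are the 4 arrays on which Per1 went against the label. By label, the mean was 1.40 ± 0.32 on vehicle arrays, 1.65 ± 0.17 on Dex arrays, 1.33 ± 0.27 on E2 arrays and 1.58 ± 0.19 on Dex+E2 arrays (SD, n = 4 each).

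By Per1 level, the 8 high arrays had Errfi1 at 1.58 to 1.87 with a median of 1.74, and the 8 low arrays at 1.17 to 1.43 with a median of 1.23. The sets did not overlap, with a gap of 0.15. Each of the 4 slides holds arrays of both sets, so this division also fixes the direction within each slide. Among all 17764 genes, 359 were higher on every Per1-high array than on any Per1-low array (2.02%), and 4.09% divided one way or the other. By gap, Errfi1 ranked 217 of those 359 and Per1 ranked 2. Between arrays 4 and 3 of one label and slide, whose order that division fixes, the differences were 0.65 (vehicle), 0.40 (Dex), 0.50 (E2) and 0.46 (Dex+E2).

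Dusp10, which acts on JNK and p38, ran in the opposite direction. It measured -0.44, -0.25, -0.78 and -1.12 on arrays 1 to 4 labelled vehicle, and -1.01, -1.15, -0.53 and -1.39 on those labelled Dex. On the E2 arrays it measured -0.84, -0.60, -0.60 and -1.07, and on the Dex+E2 arrays -1.11, -0.995, -0.53 and -1.29. Again the labels overlapped, and the same 4 arrays stood on the far side: Vehicle 4 and E2 4 were low, Dex 3 and Dex+E2 3 high. The mean was -0.65 ± 0.38 on vehicle arrays, -1.02 ± 0.36 on Dex arrays, -0.78 ± 0.23 on E2 arrays and -0.98 ± 0.33 on Dex+E2 arrays (SD, n = 4 each).

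On the Per1-high arrays Dusp10 lay between -1.39 and -0.995 with a median of -1.11, and on the Per1-low arrays between -0.84 and -0.25 with a median of -0.57. The sets did not overlap, by a gap of 0.16, which again fixes the direction within each of the 4 slides. Genes lower on every Per1-high array made up 2.07% of those tested (367 genes), among which the gap of Dusp10 ranked 124. Between arrays 4 and 3 of one label and slide, whose order the division fixes, the differences were -0.33 (vehicle), -0.86 (Dex), -0.47 (E2) and -0.76 (Dex+E2). Errfi1 and Dusp10 thus moved in opposite directions between the sets, but not in the same way within them: their correlation was -0.68 over the 8 Per1-high arrays and 0.27 over the 8 Per1-low arrays, which share slides and array numbers.

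**Figure D1:**
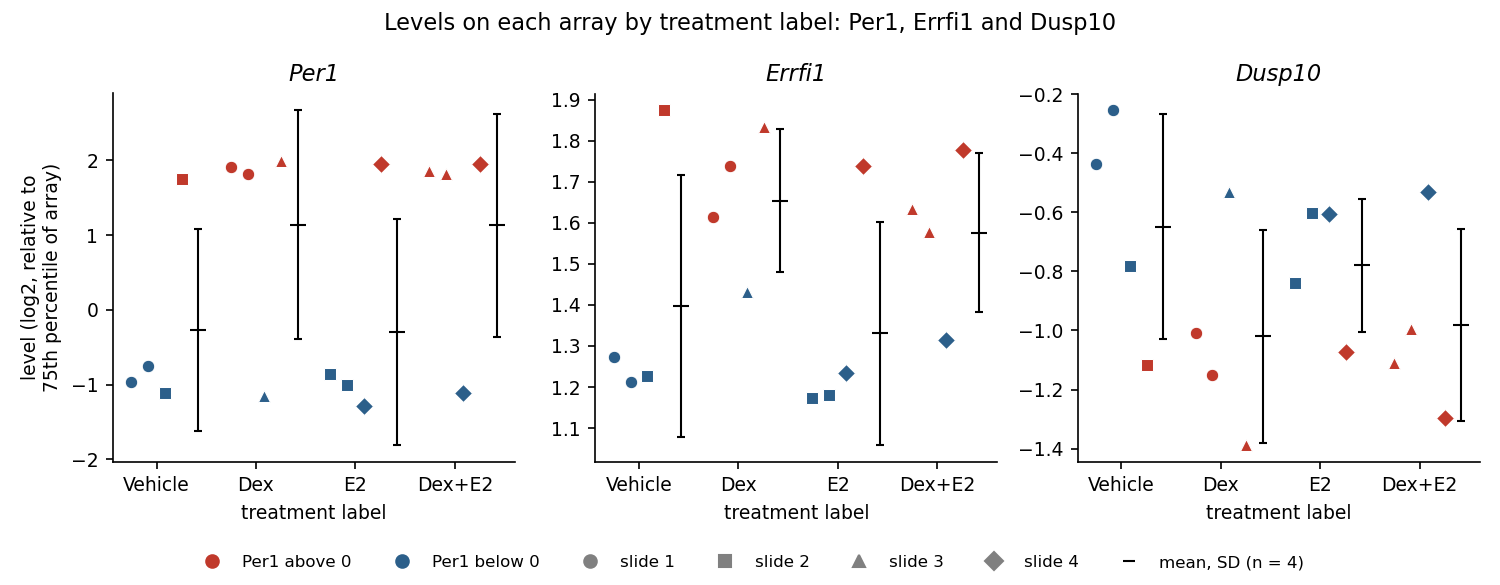
Levels (log2, minus the array's 75th percentile) of Per1, Errfi1 and Dusp10 on each of the 16 arrays by treatment label, with colour for Per1 above or below 0, marker shape for the slide, and bars for the mean and SD of 4 arrays. Errfi1 lies at 1.58 to 1.87 on every Per1-high array and at 1.17 to 1.43 on every Per1-low array, and Dusp10 at -1.39 to -0.995 and -0.84 to -0.25.

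**Figure D2:**
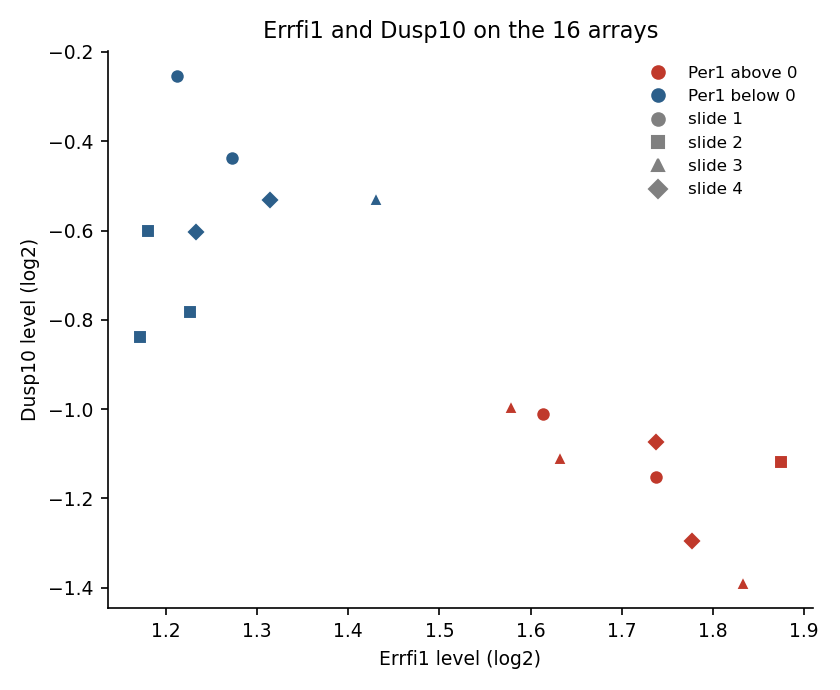
Dusp10 level against Errfi1 level (both log2, minus the array's 75th percentile) on the 16 arrays, coloured by Per1 above or below 0, with marker shape for the slide. The Per1-high arrays lie at the lower right and the Per1-low arrays at the upper left, 8 arrays in each, with no overlap on either axis.

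The other 7 measured members overlapped between the Per1 sets. Dusp1, the nuclear phosphatase, measured 0.82, 1.23, 0.11 and 0.25 on the vehicle arrays and 0.53, 0.50, 0.43 and 0.25 on the Dex arrays. It measured 0.46, 0.59, 0.32 and 0.13 on the E2 arrays and 0.52, 0.49, 0.39 and 0.17 on the Dex+E2 arrays. Vehicle 1 and 2 were the highest of all 16 arrays, Vehicle 3 the lowest, and the labels overlapped. By Per1 level Dusp1 lay at 0.13 to 0.53 on the high arrays and 0.11 to 1.23 on the low ones.

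Dusp1 did divide with the array number. The 8 arrays numbered 1 or 2 lay at 0.46 to 1.23 and the 8 numbered 3 or 4 at 0.11 to 0.43, with no overlap, a split chosen after the levels were seen. Of all genes tested, 184 were higher on every array numbered 1 or 2 (1.04%) and 104 were lower (0.585%), and the other 8 measured members overlapped. Slide 1 holds arrays numbered 1 and 2 only and slide 4 those numbered 3 and 4 only, and on slides 2 and 3 the number goes with the label, so array number cannot be told apart from slide or label.

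On slide 1, the slide on which Dex and vehicle were hybridised together, Dusp1 measured 0.82 and 1.23 with vehicle and 0.53 and 0.50 with Dex. The difference was -0.51 ± 0.15 (SE). It is a description without a test, since the genes were chosen with the absence of a Dusp1 rise on this slide in view. The Dusp1 differences for Dex against vehicle and for Dex averaged over E2 include these arrays. The difference for Dex+E2 against E2 does not. Errfi1 was higher with Dex there by 0.43 ± 0.08 (limma adjusted p = 0.165 over 17771 genes), and Dusp10 differed by -0.73 ± 0.12 (adjusted p = 0.124). Dusp1 aside, which is given without a test, no member was called on slide 1, where 45 genes (0.253%) were. Vehicle 1, the array that stood apart, is one of the 4 arrays of this slide.

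Dusp4, which like Dusp1 is nuclear, ranged from -1.63 to -1.13 over the 16 arrays. It lay at -1.30 to -1.13 on the Per1-high arrays and -1.63 to -1.20 on the Per1-low arrays, with Vehicle 1 as the single Per1-low array inside the range of the Per1-high arrays, and was higher on the Per1-high arrays within 3 of the 4 slides. Dusp6, the cytoplasmic ERK phosphatase, ranged from 1.60 to 2.29, with means by label of 1.93 ± 0.13 (vehicle), 1.95 ± 0.26 (Dex), 1.93 ± 0.23 (E2) and 1.89 ± 0.25 (Dex+E2; SD, n = 4 each). Dusp6 differed more within a label than between labels, with the lowest values on E2 1 and Dex+E2 4 and the highest on Dex 3.

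Dusp8, of the JNK and p38 group, ranged from 4.66 to 5.11. That probe had an intensity of 11540 to 16413 on a linear scale, and the others 218 to 382 and 214 to 368. Each was well above background on 16 of 16 arrays, so the level of Dusp8 depends on the probe. Its 3 probes overlapped between the Per1 sets. Dusp8 differences given below are from the brightest probe unless another is named. Dusp16, of the same group, was read from a dim probe whose intensity was 8.25 to 17.2 on a linear scale, well above background on 16 of 16 arrays, and its level ranged from -5.74 to -4.98. Its means by label lay between -5.42 ± 0.24 for Dex and -5.27 ± 0.10 for E2 (SD, n = 4 each). Neither gene divided by label or by Per1.

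The sprouty genes moved more from array to array. Spry2 ranged from -2.26 on E2 1 to -1.44 on E2 4, and Spry4 from -3.47 on E2 1 to -2.28 on E2 4, so the extremes of both genes fell on the same 2 arrays of the same label. On Per1-high arrays Spry4 lay at -3.26 to -2.28 and on Per1-low arrays at -3.47 to -2.70, overlapping, and it was higher on the Per1-high arrays within 3 of the 4 slides. Spry2 and Spry4 were correlated at 0.69 over the 16 arrays, at 0.68 within the Per1-high and 0.75 within the Per1-low set. A further Spry4 probe was well above background on 0 arrays.

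**Figure D3:**
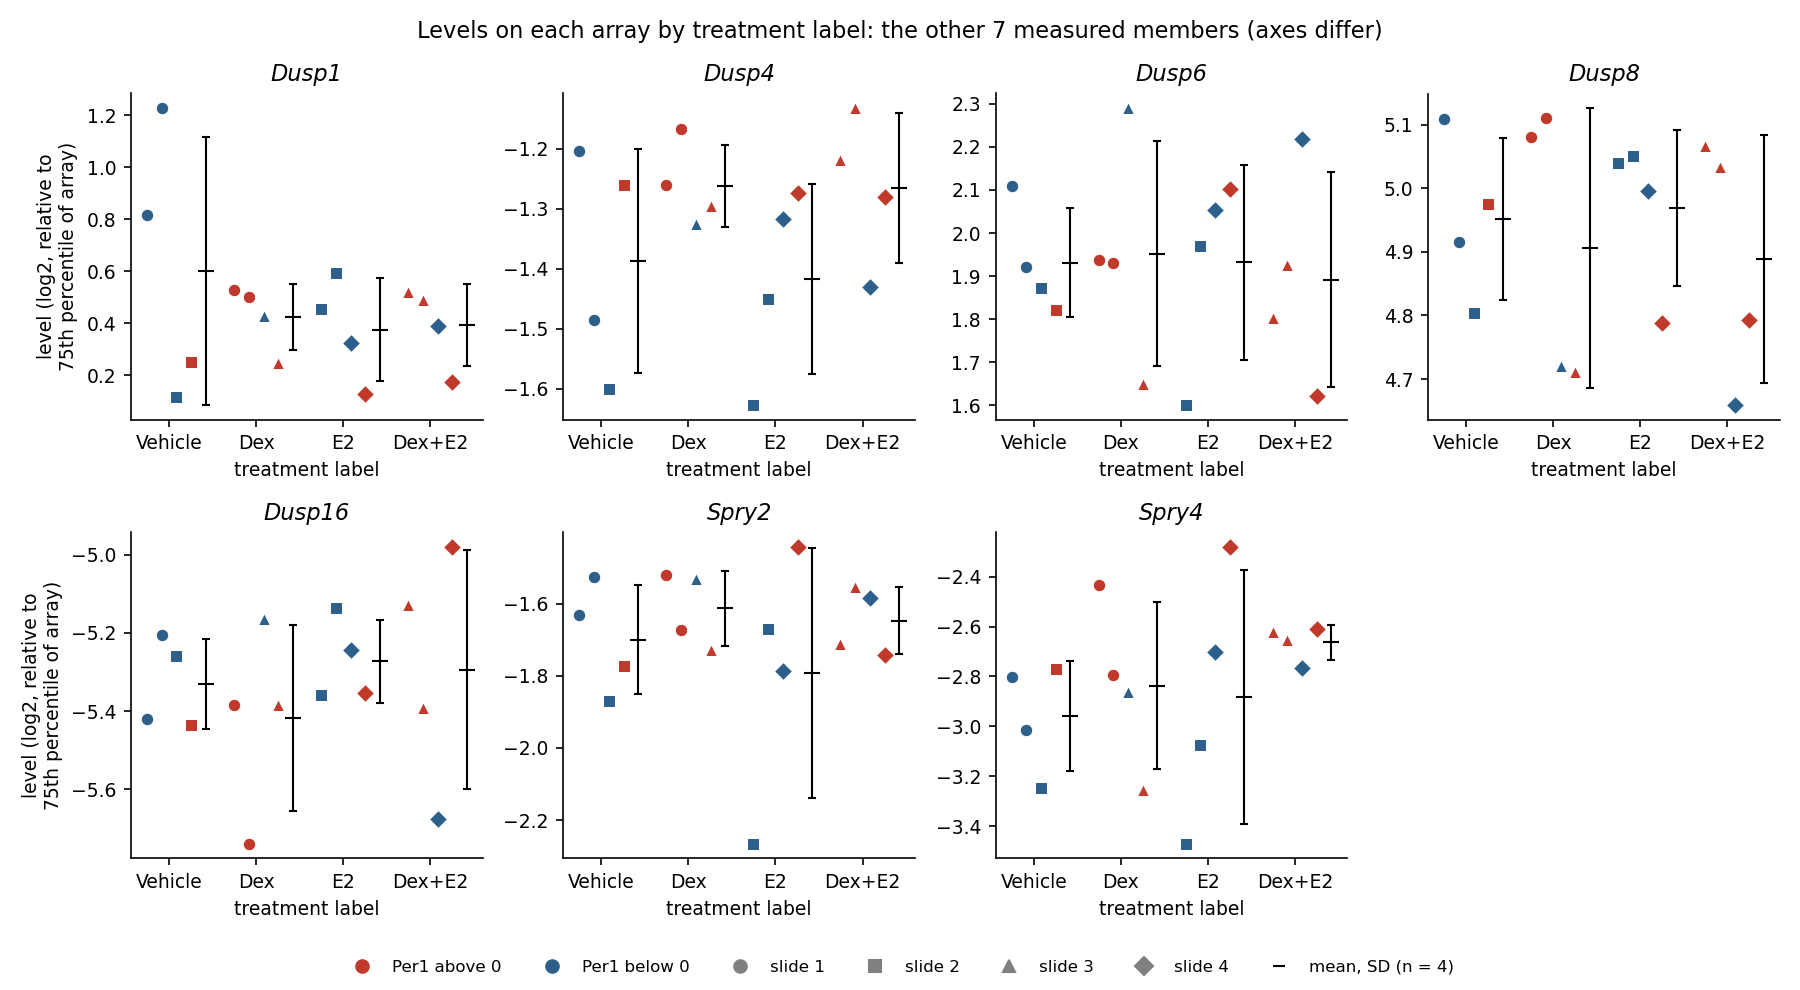
Levels (log2, minus the array's 75th percentile) of the other 7 measured members on each of the 16 arrays by treatment label, with colours, shapes and bars as in the plot of Errfi1 and Dusp10 and a separate axis range for each gene. In each gene the Per1-high and Per1-low arrays overlap, and Vehicle 1 and Vehicle 2 are the highest for Dusp1.

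With all 16 arrays, 0 of 17764 genes (0%), and so 0 of the 9 members, passed the test in any of the 8 comparisons between labels. The test was limma on the 16 arrays with Benjamini-Hochberg adjustment over all genes. At an unadjusted p under 0.05 the comparisons held between 567 genes (Dex+E2 against Dex) and 1932 genes (Dex against vehicle). For Dex against vehicle, Errfi1 differed by 0.26 ± 0.16 (SE; limma adjusted p = 0.557) and Dusp10 by -0.37 ± 0.21 (adjusted p = 0.534). Dusp1 differed by -0.18 ± 0.19, given without a test, since the slide 1 arrays, which bore on the choice of genes, are part of it. With slide as a block the differences of Errfi1, Dusp10 and Dusp1 were 0.25 ± 0.21, -0.49 ± 0.27 and -0.32 ± 0.15. Dusp1 aside, again no member was called. Leaving out Vehicle 2 turned the Dusp1 difference to 0.03.

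Averaged over both E2 states, the difference with Dex was 0.25 ± 0.11 for Errfi1 (limma adjusted p = 0.498) and -0.29 ± 0.15 for Dusp10 (adjusted p = 0.504). The other members differed by -0.08 (Dusp1) to 0.17 (Spry4), with Dusp4 at 0.14, Spry2 at 0.12, Dusp6 at -0.01, Dusp16 at -0.05 and Dusp8 at -0.06. The median over the 9 members was -0.01, beside -0.02 over all genes. Dusp1 is again given without a test. No other member was called, and at an unadjusted p under 0.05 there was 1 member, Errfi1, beside 1779 genes.

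Without the 4 arrays on which Per1 went against the label, 2 of the 9 members were called for Dex against vehicle, beside 2.43% of all genes. Both, Errfi1 and Dusp10, divided with Per1, by which the 4 arrays were picked, so their calls gain from that choice. Their adjusted p-values in this fit are therefore no separate evidence. Errfi1 was higher by 0.49 ± 0.08 (limma adjusted p = 0.006), where 239 genes (1.34%) were called higher, and Dusp10 differed by -0.69 ± 0.15 (adjusted p = 0.033), where 193 genes (1.09%) were called lower. Averaged over E2, where 5.53% of genes were called, the difference was 0.48 ± 0.06 for Errfi1 (limma adjusted p = 0.000292; 2.67% of genes higher) and -0.57 ± 0.11 for Dusp10 (adjusted p = 0.007; 2.86% lower). Of the remaining 7 members, Dusp1 stood at -0.18 ± 0.16, given without a test, and no other was called. Spry4 stood at 0.32 ± 0.16 and Dusp4 at 0.22 ± 0.08.

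Dusp1 for Dex against vehicle in that fit was -0.30 ± 0.22, again without a test, since it includes the slide 1 arrays. For Dex+E2 against vehicle, Errfi1 (0.43 ± 0.08, limma adjusted p = 0.013) and Dusp10 (-0.64 ± 0.15, adjusted p = 0.047) were called, beside 2.59% of all genes, 1.48% higher and 1.11% lower. For Dex+E2 against E2, Errfi1 was called (0.47 ± 0.08, limma adjusted p = 0.008, beside 1.93% of all genes, 1.26% higher) and Dusp10 was not (-0.45 ± 0.15, adjusted p = 0.225). Both comparisons with vehicle use the same vehicle arrays.

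**Figure D4:**
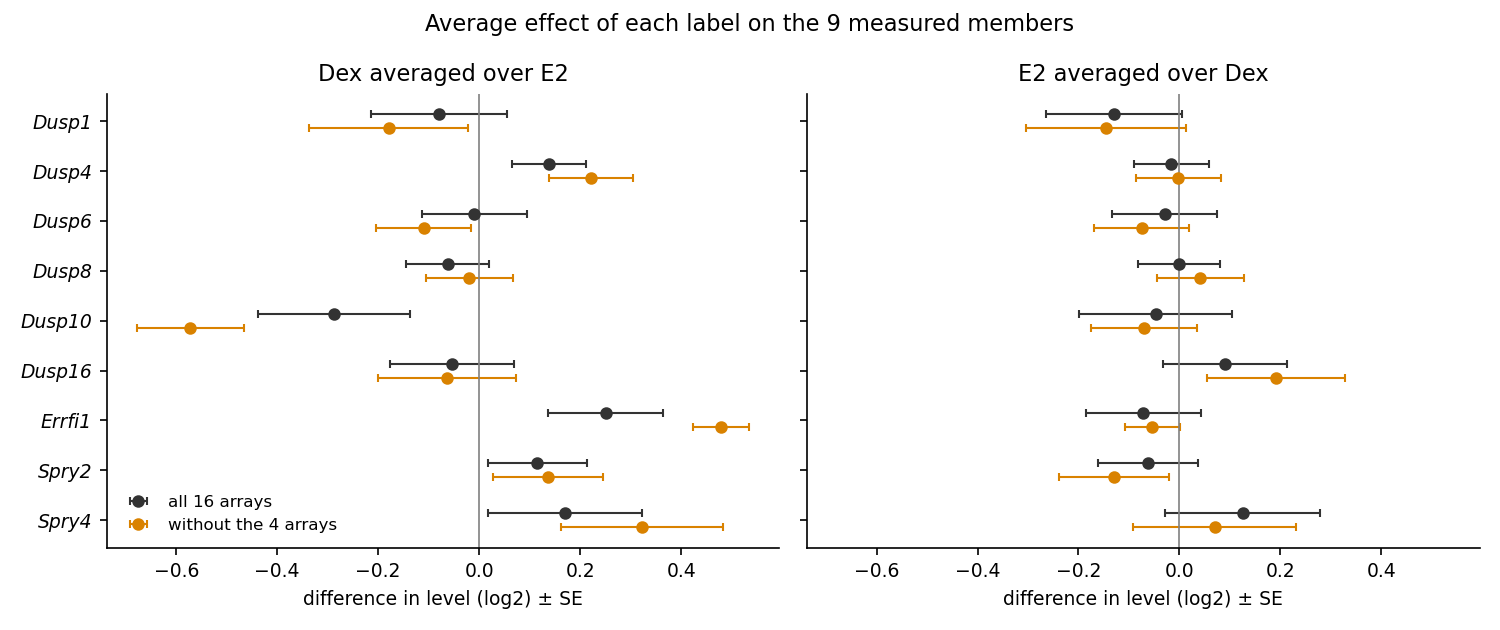
Difference in level (log2) with its SE for the 9 measured members with Dex averaged over E2 (left) and with E2 averaged over Dex (right), for all 16 arrays and without the 4 arrays on which Per1 went against the label. With all arrays Errfi1 and Dusp10 lie at 0.25 and -0.29 for Dex, and without the 4 arrays at 0.48 and -0.57, and the E2 differences lie between -0.15 and 0.19.

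No member was called for E2 in any fit. Averaged over both Dex states, the difference with E2 lay between -0.13 ± 0.13 for Dusp1 and 0.13 ± 0.15 for Spry4 (SE), and the median over the 9 members was -0.03, beside -0.01 over all genes. Errfi1 differed by -0.07 ± 0.11 and Dusp10 by -0.05 ± 0.15. In limma on all 16 arrays without the slide, 0 of the 9 members and 0 of 17764 genes were called, with 0 members and 652 genes at an unadjusted p under 0.05. Without the 4 arrays the range was -0.15 to 0.19 and again 0 members and 0 genes (0%) were called. Dusp1 changed sign with the slide: it was 0.34 ± 0.11 higher with E2 within slide 2 (limma adjusted p = 0.605) and 0.26 higher on average with slide as a block. On slides 2 and 3 the arrays with E2 are numbered 1 or 2 and those without it 3 or 4. E2 differences within slide 2 or averaged with slide as a block therefore cannot be told apart from array number, by which Dusp1 divided. Slide 2 also holds Vehicle 4, on which Per1 went against the label. Dusp8 went from a difference near 0 to 0.24 ± 0.08 with slide as a block (E2 averaged over Dex; unadjusted p = 0.009, limma adjusted p = 0.258), and was not called.

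Whether E2 changed the response to Dex is asked by the interaction of the labels and by Dex+E2 against Dex. The interaction was -0.01 ± 0.23 for Errfi1, 0.17 ± 0.30 for Dusp10 and 0.20 ± 0.27 for Dusp1 (SE), and Dex+E2 against Dex gave -0.08 ± 0.16, 0.04 ± 0.21 and -0.03 ± 0.19. In limma with Benjamini-Hochberg adjustment, 0 members and 0 genes were called in both, with 661 and 567 genes at an unadjusted p under 0.05. Without the 4 arrays, Errfi1 had an interaction of -0.02 ± 0.11 and differed by -0.07 ± 0.08 between Dex+E2 and Dex, again with no member called. Within slide 3, which holds both labels, Dex+E2 against Dex gave -0.03 ± 0.15 for Errfi1 and, of the opposite sign to the pooled values, -0.09 ± 0.30 for Dusp10 and 0.17 ± 0.10 for Dusp1. Dusp8 differed there by 0.33 ± 0.08 (limma adjusted p = 0.408). Slide 3 compares Dex+E2 1 and 2 with Dex 3 and 4, so label and array number cannot be told apart there. Dex 3 is also one of the 4 arrays on which Per1 went against the label. Per1 itself differed by 1.42 ± 1.03 on slide 3, and Dusp10 lay at -0.53 on Dex 3 and -1.39 on Dex 4.

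The other genes of the pathway were read from lists set with earlier results of these data known, and none of their members was called with all 16 arrays. The remaining phosphatases of the family, Dusp2, Dusp7 and Dusp9, all overlapped between the Per1 sets, where 4.09% of all genes divided. Their median for Dex against vehicle was 0.16, beside -0.03 over all genes. Dusp2, an inducible nuclear phosphatase, stood at 0.16 ± 0.12, and Dusp7, which like Dusp6 prefers ERK, at 0.09 ± 0.14 (SE). Of 12 atypical dual-specificity phosphatases, 10 were tested and 0 divided by Per1, beside 4.09% of all genes. For Dex against vehicle, Dusp23 stood at -0.36 ± 0.11 and Dusp26 at 0.24 ± 0.11.

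Among 5 tested further feedback inhibitors of receptor tyrosine kinases, 1 was lower on every Per1-high array, beside 2.07% of all genes: Il17rd, known as Sef, which restrains fibroblast growth factor signalling. Il17rd lay at -1.19 to -0.67 on Per1-high and -0.60 to 0.10 on Per1-low arrays. It was called lower with Dex averaged over E2 once the 4 arrays were left out, at -0.51 ± 0.12 (limma adjusted p = 0.025), and so was the sprouty gene Spry1, at -0.36 ± 0.09 (adjusted p = 0.033), beside 2.86% of all genes. With all arrays their Dex against vehicle differences were -0.46 ± 0.19 and -0.06 ± 0.17, neither called.

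Of 14 tested receptors and ligands, 2 were higher and 3 lower on every Per1-high array, beside 2.02% and 2.07% of all genes. Those lower were the epidermal growth factor receptor gene Egfr (-3.35 to -3.06 against -3.005 to -2.74), its relative Erbb2 (-0.47 to -0.18 against -0.06 to 0.28) and Nrg1, a neuregulin ligand of that family (-0.72 to -0.45 against -0.34 to -0.0045). Those higher were Fgf9, a fibroblast growth factor, and Met, the receptor of hepatocyte growth factor. All 5 were picked out after their values were seen, and Hbegf, a ligand of Egfr in the same list, overlapped between the sets (-0.19 to 0.08 against -0.35 to 0.20). With the 4 arrays left out, Nrg1 differed with Dex averaged over E2 by -0.42 ± 0.07 (limma adjusted p = 0.002), Erbb2 by -0.41 ± 0.08 (adjusted p = 0.010) and Met by 0.40 ± 0.08 (adjusted p = 0.013). In that comparison 2.67% of all genes were called higher and 2.86% lower. Egfr (-0.30 ± 0.09, adjusted p = 0.086) and Fgf9 were not called.

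Most kinase genes of the cascade were called in neither fit. None of 13 adaptors and kinases from Grb2 to MEK and none of 10 tested MAP kinases divided by Per1 or was called in either fit, for Dex against vehicle or averaged over E2. Of all genes, 4.09% divided by Per1. Without the 4 arrays, 2.43% of all genes were called for Dex against vehicle and 5.53% for Dex averaged over E2. In lists this short a count of 0 therefore says little. By the smallest unadjusted p the examples are Map2k1, encoding MEK1, at 0.16 ± 0.10 and Araf at 0.10 ± 0.09, and Mapk9, encoding JNK2, at 0.13 ± 0.07 and Mapk7, encoding ERK5, at -0.14 ± 0.11 (Dex against vehicle, SE). Igf1r and Hbegf, among the receptors and ligands, stood at -0.25 ± 0.11 and 0.20 ± 0.09.

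In the stress branch, 13 kinases upstream of JNK and p38 were tested and 1 divided in each direction, beside 2.02% of all genes higher and 2.07% lower. Map2k3, which activates p38, lay at 0.30 to 0.77 on Per1-high and -0.05 to 0.29 on Per1-low arrays, and Map3k5 (ASK1) at -0.95 to -0.76 and -0.57 to 0.10. Map3k5 was called without the 4 arrays, at -0.50 ± 0.09 for Dex averaged over E2 (limma adjusted p = 0.008), beside 2.86% of all genes called lower. Map3k2 and Map3k4 stood at -0.29 ± 0.09 and -0.51 ± 0.19 for Dex against vehicle with all arrays, neither called. Among 13 tested effectors, 1 was higher on every Per1-high array, beside 2.02% of all genes, and 0 were lower. It was Mknk2, a kinase of the translation factor eIF4E, at 5.002 to 5.43 against 4.602 to 4.92. Rps6ka3, encoding RSK2, stood at -0.31 ± 0.10 and Creb1 at -0.21 ± 0.08 for Dex against vehicle with all arrays, neither called. With the 4 arrays left out, 1 effector was called in each direction for Dex averaged over E2, beside 2.67% of all genes higher and 2.86% lower: Mknk2 differed by 0.54 ± 0.08 (limma adjusted p = 0.003) and Rps6ka3 by -0.29 ± 0.07 (adjusted p = 0.027).

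Of 20 tested genes that ERK signalling is known to induce, 0 were called with all 16 arrays. On every Per1-high array 1 of them was higher and 3 were lower, beside 2.02% and 2.07% of all genes. Egr1, an immediate early transcription factor, lay at -0.13 to 0.36 on Per1-high and 0.58 to 1.17 on Per1-low arrays, and Phlda1 at 1.41 to 1.78 and 2.56 to 2.86. Ier3 was also lower, and Etv1, an ETS factor, higher.

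Without the 4 arrays and averaged over E2, 4 of the 20 were called lower with Dex and 3 higher, beside 2.86% and 2.67% of all genes. Phlda1 differed by -1.06 ± 0.07 (limma adjusted p = 7.08e-06), Egr1 by -0.81 ± 0.08 (adjusted p = 8.66e-05), Ier3 by -0.73 ± 0.13 (adjusted p = 0.007) and Egr2 by -0.37 ± 0.10 (adjusted p = 0.0498). Etv1 (0.51 ± 0.11), Fosl2 (0.51 ± 0.10) and Myc (0.44 ± 0.12) were called higher. With all 16 arrays, Egr1 stood at -0.56 ± 0.24 and Egr2 at -0.40 ± 0.17 for Dex against vehicle, neither called. Apart from Egr1 and Egr2 these genes were picked out after their values were seen, and they gain from leaving out the 4 arrays as Errfi1 and Dusp10 do.

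The genes whose levels were most like each member's, by Pearson correlation over the 16 arrays, are given as a description, since arrays share slides and array numbers. For Errfi1 they were Akr1c14, Asb11 and Ttpa, each of which also divided with Per1. Within the Per1-high set of 8 the correlations with Errfi1 were 0.72, 0.88 and 0.74, and within the Per1-low set 0.90, 0.57 and 0.85. For Dusp10 they were Spsb4, Akap12 and Phldb1, with 0.97, 0.97 and 0.88 within the Per1-high set and 0.93, 0.94 and 0.95 within the Per1-low set. These genes were chosen for their correlation over the same arrays, so values within the sets are no separate evidence.

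For Dusp1 the most similar genes were Cetn4, Eda2r and B2m (0.95, 0.95 and 0.94 over 16 arrays), for Dusp4 Nop10, Gnl3l and Dnajc24 (0.91, 0.90 and 0.90), and for Dusp6 Ctdsp1, Ctf1 and Ralb (0.96, 0.94 and 0.94). Dusp8 was closest to Klf2, 9530080O11Rik and Tmem135 (0.95, 0.95 and 0.93). Spry2 was closest to Stk35, Camk2d and Pabpc4 (0.92, 0.91 and 0.90) and Spry4 to Ppp1r12b, Dnm1l and Osgin2 (0.92, 0.88 and 0.88). Dusp16 had no close neighbour, with 0.71 for Otof, 0.68 for Meltf and 0.67 for Hoxa6. No gene was among the nearest of more than 1 member.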

How the data were processed

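Scanner images were read by Agilent Feature Extraction, named as version 12 in the submitters' processing notes, and the processed signal is a background-subtracted linear intensity, per the file headers. The authors also deposited log2 values of the 16 arrays, with a median of 4.698 in each column; each column correlated with its own array at 0.999 or more across probes, how it was normalized was not given in the sources used here, and it served as an alternative only. Groups came from the labels. Control spots and outlier spots were left out, spots of a probe averaged, and log2 intensity taken minus the 75th percentile of the array. Of 41174 probes, 28223 were named through RefSeq accessions (assembly GRCm38.p6). A probe was kept if 1 or more labels had it above background (well above, by the scanner's flag) on all 4 arrays (24453 probes, 17771 genes). Genes that lacked at most 1 array (17764; no member lacked any) were fitted with limma 3.58.1 in R 4.3.3 (lmFit, eBayes with a trend, treatment only, two-sided, Benjamini-Hochberg, called under 0.05). The statistics were tested on simulated data with independent noise. The simulation held no slides, array numbers or arrays against their label, so it does not show how the tests behave with these.

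Named are the members, Per1, up to 3 called genes of each list by adjusted p or otherwise the 2 with the smallest unadjusted p for Dex against vehicle, and the 3 genes most correlated with each member; others are named as picked out afterwards. Members, lists and the 4 arrays left out were chosen with earlier results of these data known. Alternatives were background correction, normalization, the deposited table, the filter, slide and array number as blocks, single slides, the variance prior, a gene's other probe and leaving out arrays. The mean signal planned for normexp is not used here: the median signal took its place, with offset 50 and flagged local backgrounds set to the array's median.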

Additional observations from a re-analysis of the deposited data

Results flagged for a closer look

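Errfi1 on Vehicle 4 stood far from the other vehicle arrays, at 1.874 against 1.213 to 1.272. The gap was 0.910 of the range of the group, above Dixon's critical value for 4 arrays. Errfi1 on E2 4 stood as far from the other E2 arrays, at 1.737 against 1.172 to 1.233, a gap of 0.892 of the range. Per1 was high on both arrays, against their label. In all, 36 groups of 4 arrays were examined (9 members and 4 labels), and chance alone flags about 1 group in 20.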

How the results depend on the processing

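Of 36 member differences, each computed under up to 13 alternatives, 306 values kept direction and side of the threshold, 7 became called (all without the 4 arrays on which Per1 went against the label) and 23 changed sign, none of them called on either side. Without those 4 arrays the members called were 2 for Dex against vehicle, 2 for Dex+E2 against vehicle, 1 for Dex+E2 against E2 and 2 for Dex averaged over E2, in place of 0. Leaving these 4 out was chosen after seeing the data, and the cause of each sign change was not tested.

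With slide as a block, E2 averaged over Dex was 0.256 for Dusp1, 0.0131 for Dusp4, 0.245 for Dusp8 and 0.0684 for Dusp10, Dex averaged over E2 was -0.0323 for Spry2, and Dusp1 was 0.158 for E2 against vehicle, 0.0291 for Dex+E2 against vehicle, 0.353 for Dex+E2 against Dex and -0.129 for Dex+E2 against E2. Within slide 2, E2 against vehicle was 0.230 for Dusp10 and 0.342 for Dusp1, and within slide 3, Dex+E2 against Dex was -0.0934 for Dusp10 and 0.169 for Dusp1. On slides 2 and 3 the arrays with E2 are also those numbered 1 or 2. For Dusp8, E2 averaged over Dex was 0.0063 with normexp, 0.0038 with quantile normalization, 0.0024 in the authors' deposited log2 table, 0.0022 with the next brightest probe and 0.0411 without the 4 arrays. For Dusp16, Dex averaged over E2 was 0.0841 with quantile normalization and 0.0821 in the authors' deposited log2 table. The other Spry2 probe gave -0.108 for Dex and 0.0121 for E2, each averaged. Without the 4 arrays Dusp1 was -0.0633 for Dex+E2 against E2.

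Leaving out 1 array in turn changed no call. It changed signs over these ranges: for Errfi1, -0.172 to 0.123 in the interaction, -0.152 to 0.0090 for Dex+E2 against Dex, -0.201 to 0.0935 for E2 against vehicle and -0.1397 to 0.0077 for E2 averaged. For Dusp10 the ranges were -0.113 to 0.201 for Dex+E2 against Dex and -0.125 to 0.0345 for E2 averaged. For Dusp1 they were -0.339 to 0.0311 for Dex against vehicle, -0.161 to 0.0246 for Dex averaged, -0.0130 to 0.358 in the interaction, -0.0917 to 0.0414 for Dex+E2 against Dex and -0.0648 to 0.0915 for Dex+E2 against E2. The upper ends for Dex are without Vehicle 2. For Dex averaged, Dusp6 ranged from -0.0655 to 0.0410 and Dusp16 from -0.107 to 0.0092. For E2 averaged, Dusp4 ranged from -0.0516 to 0.0186, Dusp6 from -0.0839 to 0.0267, Dusp8 from -0.0327 to 0.0379 and Spry2 from -0.121 to 0.0163.

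With the array number of the labels as a replicate block, 0 members were called in each of the 8 comparisons. Each number holds every label, so Dex against vehicle stayed at 0.257 for Errfi1 and -0.372 for Dusp10. Their SEs were 0.09 and 0.15, in place of 0.16 and 0.21 (limma unadjusted p = 0.015 and 0.030, adjusted p = 0.304 and 0.312). The SEs of Dusp4, Dusp16, Spry2 and Spry4 did not fall. Arrays numbered 3 had low and those numbered 4 high Per1, so the block also takes up that division. At an unadjusted p under 0.05 that fit held 2549 genes for Dex against vehicle, in place of 1932. Same-numbered arrays correlated at -0.156 to 0.463 in their deviations from the group means, and 9 of 16 arrays correlated best with their own number, a hint of pairing from the data. The median was 0.117 between same-numbered arrays and -0.042 between arrays of different number. Since not every same-numbered pair correlated clearly above 0, the number was not taken as a pairing in the main fit. That fit therefore leaves a possible pairing out of account.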
